A study of Mus musculus with 18 samples.

Results

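The genes described here are 42 genes of the extracellular matrix other than collagens, together with genes of the fibroblast surface, measured in primary mouse myotube cultures. They were listed by name and sorted into adhesive and matricellular glycoproteins, proteoglycans, elastic fibre proteins with their cross-linking enzymes, collagen-processing proteins, matrix proteases, protease inhibitors and fibroblast surface proteins. The annotation of the array named a probe for 41 of the 42, out of 17711 genes named in all, and for *Fbn1* it named none. *Ctgf* was matched under its newer symbol Ccn2. Each gene is represented by its probe with the highest mean signal. With detection defined as a detection p-value under 0.05 on an array, 38 of the 41 were detected on all 18 arrays, *Vcan* on 17 and *Fmod* on 10, and *Fbln5* on none.

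Muscle fibres lie in a matrix that is made largely by the fibroblasts between them. Fibroblasts are carried along when muscle cells are isolated, so a primary myotube culture also holds cells that did not come from the myogenic lineage. Matricellular proteins such as thrombospondins and connective tissue growth factor signal to cells more than they bear load, whereas elastic fibres, lysyl oxidases and collagen-processing enzymes build and harden the matrix, and metalloproteinases and their inhibitors set its turnover. Accumulation of such a matrix, fibrosis, is a feature of muscle that lacks dystrophin.

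The cultures were primary myotubes grown from limb muscle of C57BL/10 mice, 3 to 5 days old, and RNA was taken on day 6, after 48 h of differentiation. Of the 18 cultures, each read on 1 Illumina MouseWG-6 v1.1 array, 7 had received an siRNA against dystrophin on days 2 and 4, 7 had received an siRNA against GL2 (firefly luciferase, which mouse cells do not have) on the same days, and 4 were untreated. The study prepared the cultures on 4 occasions from mixed muscle cells of several mice, and which arrays belong to which occasion is not given in the sources used here. Cultures of 1 occasion therefore share a cell mixture, although each counts as 1 replicate in the tests, and the p-values measure the spread between these cultures. The siRNA arrays carry numbers 1 to 7 in both groups and the untreated arrays numbers 1 to 4.

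The targeted gene *Dmd* had log2 levels of 10.05 to 10.32 on the untreated, 10.03 to 10.51 on the GL2 siRNA and 8.07 to 8.52 on the dystrophin siRNA arrays, which leaves 25% of the GL2 level. A second *Dmd* probe had 66.7% of the GL2 level left (adjusted p = 0.039, and 0.07 within numbers) and 62.9% of the untreated level (adjusted p = 0.11). Between 17551 and 18530 of the 46632 probes were detected per array. How precise a value is depends on how many arrays a group has. All levels are log2 values of background-corrected, quantile-normalised intensity. The fibroblast markers *Pdgfra*, *Pdgfrb*, *Thy1*, *Dcn* and *Lum* were detected on all 18 arrays. In a culture of several cell types, more cells of a type and more RNA per cell cannot be told apart.

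Between dystrophin and GL2 siRNA 6 of the 41 matrix genes passed the test, all higher with dystrophin siRNA, between GL2 siRNA and untreated cultures 1 passed, lower with GL2 siRNA, and between dystrophin siRNA and untreated cultures none passed. Between both siRNAs 36 of the 41 genes had a higher mean with dystrophin siRNA, with a median log2 difference of 0.27 against 0.003 over all probes. In limma over all probes with Benjamini-Hochberg adjustment, 6 genes rose past an adjusted p of 0.05 and none fell, where 3.52% of all probes detected on at least 4 arrays rose and 4.75% fell. The 6 were *Thbs1*, *Ctgf*, *Adamts1*, *Adamts5*, *Loxl1* and *Pcolce*. At an unadjusted p under 0.05, 21 genes were higher and 1 was lower, and no share over all probes is given for this threshold.

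The same array number in both siRNA groups marked similar cultures, so both siRNAs were also compared within array numbers. There 10 of the 41 genes rose and none fell, where 4.69% of detected probes rose and 5.21% fell. These were *Thbs1*, *Ctgf*, *Tnc*, *Thbs2*, *Ogn*, *Mfap5*, *Lox*, *Loxl1*, *Loxl2* and *Adamts1*. Higher levels with dystrophin siRNA in 7 of 7 array numbers were found for 22 genes, where 11% of detected probes had that pattern, and *Mmp9* alone was lower in 7 of 7. When the number was a block in a fit of all 18 arrays, 14 genes rose (5.54% of detected probes) and *Mmp9* fell (5.89%), with the means unchanged. That block also joins untreated arrays, whose numbers pair no cultures. With clusters of similar arrays as the block 12 genes rose (6.23%) and *Mmp9* fell (6.64%). The clusters were drawn from these same arrays, so the p-values of that fit can be too small.

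Relative to untreated cultures, 36 of the 41 genes had a lower mean with GL2 siRNA, and the median log2 difference was -0.29 against 0.011 over all probes. A single gene, *Adamts5*, fell past the threshold and none rose, where 0.895% of detected probes fell and 0.756% rose. At an unadjusted p under 0.05, for which no share over all probes is given, 16 genes were lower and 1, *Timp2*, was higher. On 7 genes every GL2 siRNA array lay below every untreated array, a pattern of 3.16% of detected probes: *Ogn*, *Fbln2*, *Lox*, *Loxl1*, *Loxl2*, *Plod2* and *Adamts5*. With the number as a block *Loxl2* and *Thbs1* fell (0.761% of detected probes) and *Adamts5* did not pass, but untreated numbers pair no cultures. With the clusters as a block 7 genes fell (2.55% of detected probes), *Adamts5* with *Thbs1*, *Lox*, *Loxl1*, *Loxl2*, *Ogn* and *Plod2*. The clusters were drawn from these same arrays and are not recorded occasions, so the p-values of that fit can be too small. Both of the comparisons described so far use the same 7 GL2 siRNA arrays, so low levels on these arrays enter both.

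Between dystrophin siRNA and untreated cultures 18 genes had a higher and 23 a lower mean, with a median log2 difference of -0.02. This comparison shares the 4 untreated arrays with the one before. No gene passed the threshold in limma, where 0.617% of detected probes rose and 1.39% fell past it. None had an unadjusted p under 0.05. All 41 of the 95% intervals included 0, and 31 of them lay wholly within a change of 1.5 fold. The widest was that of *Fmod*, from -1.53 to 0.33 on the log2 scale. The plot of changes over all genes shows this order of the groups.

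**Figure D1:**
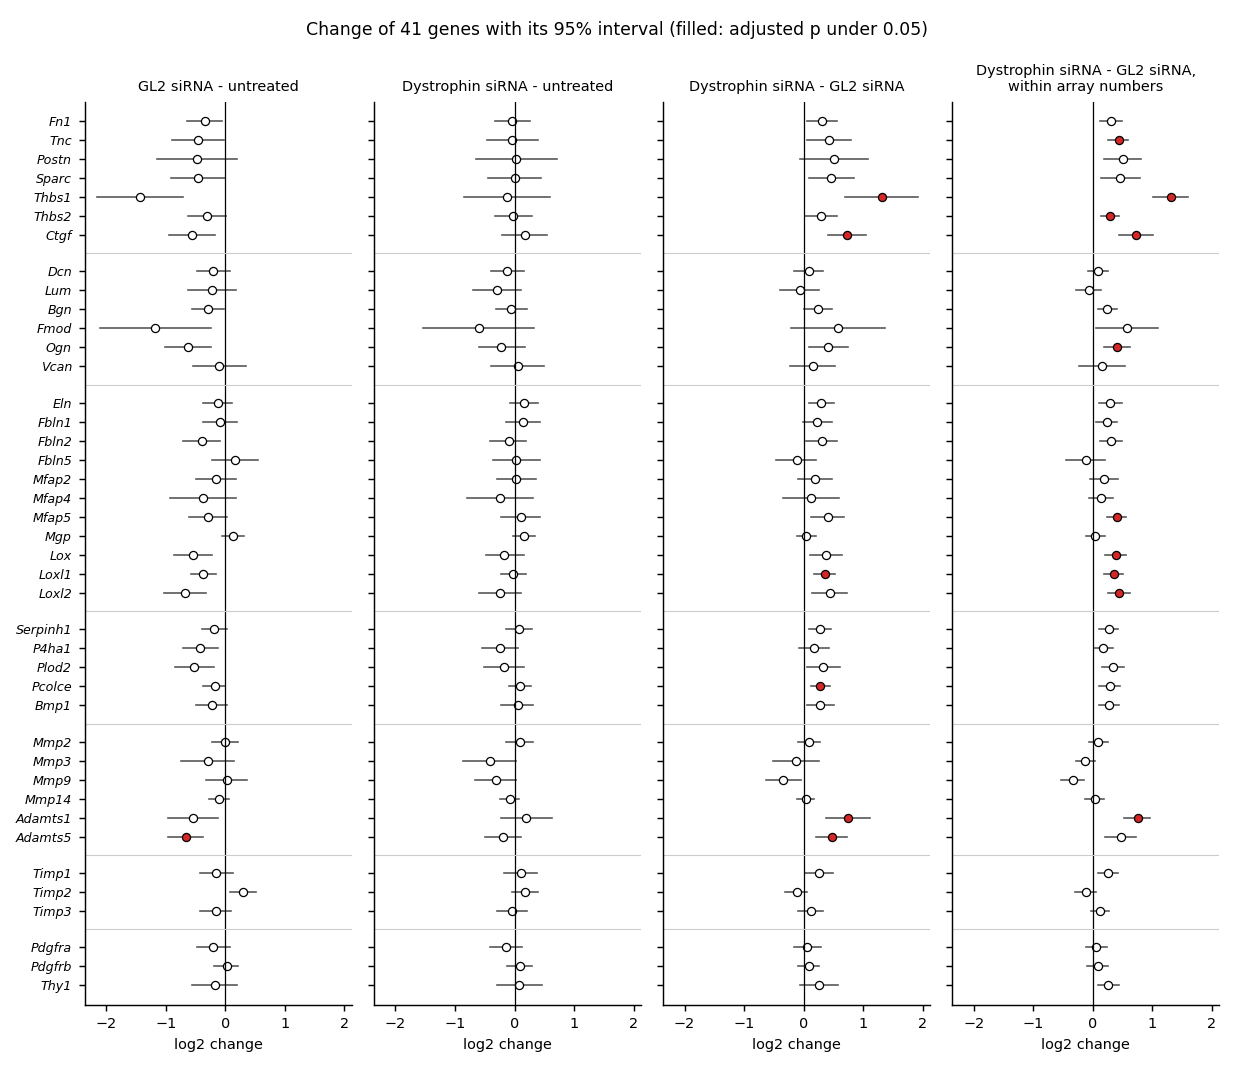
Mean log2 change of each of the 41 measured genes (points) with its 95% interval from limma (lines) in 4 comparisons, genes grouped by role between grey lines; filled points passed an adjusted p of 0.05. Between GL2 siRNA and untreated cultures 36 points lie left of 0, between dystrophin siRNA and GL2 siRNA 36 lie right of 0, and between dystrophin siRNA and untreated cultures the points lie on both sides.

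Among the adhesive and matricellular glycoproteins all 7 genes had a higher mean with dystrophin than with GL2 siRNA, with a median log2 difference of 0.46, and *Thbs1* and *Ctgf* passed the test. *Thbs1* encodes thrombospondin 1, which binds cells and matrix and can activate latent TGF-β. Its levels on untreated arrays 1 to 4 were 7.33, 8.52, 8.52 and 8.19, with GL2 siRNA they ran from 5.88 over a median of 6.62 to 7.66, and with dystrophin siRNA from 7.03 over 8.10 to 8.92. The siRNA groups overlapped, yet within each of the 7 numbers the dystrophin siRNA array was higher, by 0.52 to 1.66. *Thbs1* rose 2.48-fold (log2 difference 1.31, SE 0.29, adjusted p = 0.012, and 0.00065 within array numbers), and every setting tried kept the call, although without background correction the log2 difference was 0.84. Against untreated cultures the GL2 siRNA arrays were lower by a log2 difference of -1.44 (SE 0.34), which did not pass without a block (adjusted p = 0.062). The adjusted p was 0.0034 with the number and 0.00021 with the clusters as a block. Untreated numbers pair no cultures and the clusters were drawn from these same arrays, so neither value settles the call.

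*Ctgf* encodes connective tissue growth factor, a matricellular protein of the CCN family that is induced in fibrosis. Untreated arrays 1 to 4 had 12.23, 12.09, 12.15 and 12.09, GL2 siRNA arrays ran from 11.3 over 11.41 to 12.38, and dystrophin siRNA arrays from 11.96 over 12.21 to 12.82. Of the GL2 siRNA arrays number 1 stood apart at 12.38, while the other 6 lay at 11.3 to 11.69, below every dystrophin siRNA and untreated array. *Ctgf* rose 1.65-fold between the siRNAs (log2 difference 0.72, SE 0.15, adjusted p = 0.0086, and 0.013 within numbers), in 7 of 7 numbers, and every alternative and every array left out kept the call. Number 1 gave the smallest of the 7 differences, 0.08, and without GL2 siRNA array 1 *Ctgf* also fell with GL2 siRNA against untreated cultures (-0.69, adjusted p = 0.025, and 0.21 with that array).

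Tenascin C, the product of *Tnc*, and thrombospondin 2, that of *Thbs2*, are matricellular proteins of remodelling tissue. *Tnc* had 12.35, 12.71, 12.56 and 12.56 on untreated arrays 1 to 4, from 11.39 over 12.25 to 12.48 with GL2 siRNA and from 11.97 over 12.62 to 12.83 with dystrophin siRNA. Both siRNA groups had their lowest levels on numbers 6 and 7, so they overlapped. Within numbers *Tnc* rose by a log2 difference of 0.43 (SE 0.07, adjusted p = 0.013), whereas the fit of all arrays without the number gave an adjusted p of 0.26 for the same difference. Of its 3 further detected probes 2 also rose within numbers, by 0.58 and 0.62. *Thbs2* had 13.55, 13.75, 13.69 and 13.81 on the untreated arrays, from 12.99 over 13.45 to 13.67 with GL2 siRNA and from 13.25 over 13.74 to 14.08 with dystrophin siRNA. Its rise within numbers, 0.29 (SE 0.07, adjusted p = 0.047), was lost when any 1 number was left out, with adjusted p-values of 0.077 to 0.12, and with median centring (0.084).

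Fibronectin (*Fn1*), the main adhesive glycoprotein of the interstitial matrix, periostin (*Postn*), a matricellular protein of activated fibroblasts, and *Sparc*, which binds collagen, did not pass in either siRNA comparison. *Fn1* was higher with dystrophin siRNA in 7 of 7 numbers by 0.15 to 0.57 (mean 0.31, adjusted p = 0.22, and 0.074 within numbers). A second *Fn1* probe, detected on all 18 arrays, gave 0.09 (adjusted p = 0.92, and 0.77 within numbers). Dimmer *Fn1* probes gave 0.56 and 0.09, and none of these passed. *Postn* was higher in 6 of 7 numbers (mean 0.5, adjusted p = 0.46, and 0.08 within numbers). With the number as a block over all 18 arrays, the adjusted p-values of *Fn1* and *Postn* were 0.043 and 0.03. That block also joins untreated arrays, whose numbers pair no cultures. *Sparc* was higher in 5 of 7 numbers (mean 0.46, adjusted p = 0.23), and its difference in number 3 was -0.06. Without GL2 siRNA array 3, which stood apart, it passed in the fit without a block (0.6, adjusted p = 0.043) but not within numbers.

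**Figure D2:**
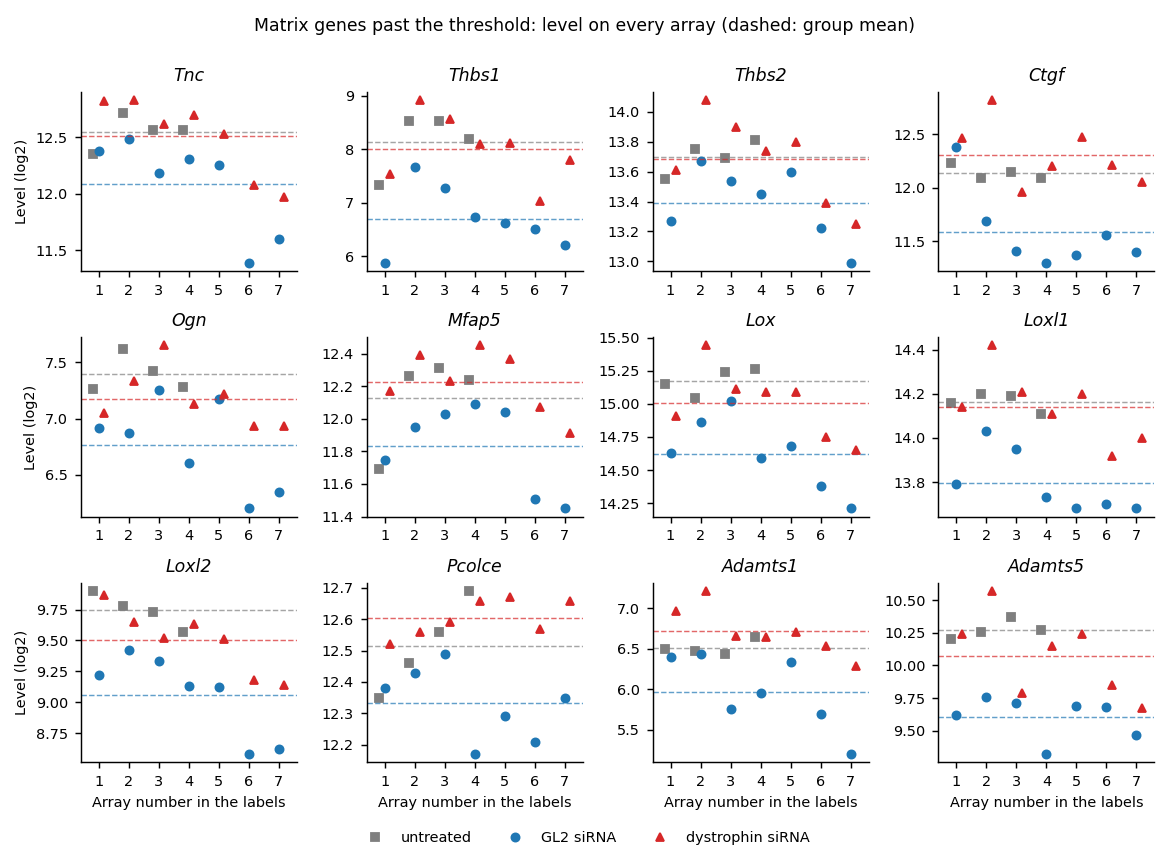
Log2 level (y axis, a separate scale for each gene) of 12 genes on every array by its number in the labels (x axis). The genes are those that passed the threshold in the fit of 3 groups without a block or within array numbers. Squares are untreated, circles GL2 siRNA and triangles dystrophin siRNA arrays, and dashed lines are group means. In each number the dystrophin siRNA array lies above the GL2 siRNA array, while numbers 6 and 7 lie low in both groups for genes such as *Tnc*, *Thbs2* and *Lox*. Untreated arrays share only the numbering.

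Proteoglycans carry glycosaminoglycan chains on a core protein, and the small leucine-rich ones among them bind collagen fibrils. Of the 6 measured, 5 had a higher mean with dystrophin than with GL2 siRNA (median log2 difference 0.19), none passed in the fit of all arrays and *Ogn*, which encodes osteoglycin, rose within numbers. *Ogn* had 7.26, 7.62, 7.42 and 7.28 on untreated arrays 1 to 4, from 6.2 over 6.87 to 7.25 with GL2 siRNA and from 6.93 over 7.13 to 7.65 with dystrophin siRNA. All GL2 siRNA arrays lay below all untreated arrays, and both siRNA groups overlapped. The difference within numbers was 0.41 (SE 0.10, adjusted p = 0.049, and 0.21 without the number), and 0.23 without background correction. Leaving out any number but 5, or centring on the median (adjusted p = 0.059), ended the call. A dimmer probe of *Ogn*, detected on all 18 arrays, gave 0.23 within numbers (adjusted p = 0.35). For GL2 siRNA against untreated cultures that probe gave -0.1 (adjusted p = 0.86), where the chosen probe gave -0.63 (0.15).

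None of the other proteoglycans passed in either siRNA comparison. *Bgn* (biglycan) was higher in 7 of 7 numbers by 0.09 to 0.33, without passing (adjusted p = 0.1 within numbers). *Dcn* (decorin) and *Lum* (lumican), the leucine-rich proteoglycans that serve as fibroblast markers, had differences of 0.08 (95% interval within numbers -0.09 to 0.25) and -0.07 (-0.28 to 0.14). *Vcan* (versican), a large proteoglycan with a dim probe here, differed by 0.15 (adjusted p = 0.82). *Fmod* (fibromodulin) was detected on 3 of 4 untreated, 3 of 7 GL2 siRNA and 4 of 7 dystrophin siRNA arrays, so its fitted differences include arrays without detection.

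Elastic fibres consist of elastin on a scaffold of microfibrils, and lysyl oxidases cross-link elastin and collagen. Of 11 measured genes 10 had a higher mean with dystrophin than with GL2 siRNA (median 0.29), and within numbers the cross-linking enzymes *Lox*, *Loxl1* and *Loxl2* and the microfibril gene *Mfap5* rose. *Loxl1* was the 1 of these that also passed without the number. It had 14.16, 14.20, 14.19 and 14.11 on untreated arrays 1 to 4, from 13.68 over 13.73 to 14.03 with GL2 siRNA and from 13.92 over 14.14 to 14.42 with dystrophin siRNA. Every GL2 siRNA array was below every untreated array, and the siRNA groups overlapped only through GL2 siRNA arrays 2 and 3 and dystrophin siRNA arrays 6 and 7. The rise was 0.35 (SE 0.09, adjusted p = 0.024, and 0.024 within numbers), or 1.27-fold. It was lost without GL2 siRNA array 4, 5, 6 or 7 or dystrophin siRNA array 2, 3 or 5 (adjusted p up to 0.057), within numbers without 1, 2, 4, 5 or 7 (up to 0.078), and in the fit of all arrays with median centring (0.13) or only the compared groups (0.057).

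*Lox*, the first described lysyl oxidase, had 15.15, 15.04, 15.24 and 15.26 on untreated arrays 1 to 4. With GL2 siRNA it ran from 14.21 over 14.63 to 15.02 and with dystrophin siRNA from 14.65 over 15.09 to 15.44. Its lowest level in each siRNA group was on number 7, and all GL2 siRNA arrays were below the untreated ones. The difference of 0.38 passed within numbers (SE 0.08, adjusted p = 0.028) and not without the number (0.13), and leaving out any number but 3, or centring on the median (0.056), ended the call. *Loxl2* had 9.9, 9.78, 9.73 and 9.57 on the untreated arrays, from 8.58 over 9.13 to 9.42 with GL2 siRNA and from 9.14 over 9.52 to 9.87 with dystrophin siRNA. All GL2 siRNA arrays were below all untreated arrays, and numbers 6 and 7 were low in both siRNA groups. *Loxl2* rose by 0.44 within numbers (SE 0.08, adjusted p = 0.018, and 0.11 without the number), a call lost without number 1, 4, 5, 6 or 7 (adjusted p up to 0.056).

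*Mfap5* encodes a glycoprotein of elastin-associated microfibrils. It had 11.69 on untreated array 1 and 12.26, 12.31 and 12.24 on arrays 2 to 4, from 11.45 over 11.95 to 12.09 with GL2 siRNA and from 11.91 over 12.23 to 12.45 with dystrophin siRNA. Both siRNA groups were lowest on number 7, and in every number the dystrophin siRNA array was higher, by 0.2 to 0.55. The rise within numbers was 0.4 (SE 0.07, adjusted p = 0.015) and held with each number left out, while the fit without the number gave 0.11. *Eln* (elastin) and *Fbln1* (fibulin 1) were higher in 7 of 7 numbers by means of 0.29 and 0.23 and did not pass. *Fbln2* (0.3, higher in 6 of 7 numbers), *Mfap2* (0.19), *Mfap4* (0.13) and *Mgp* (0.04), which encodes matrix Gla protein, an inhibitor of calcification, did not pass either. *Fbln5* was detected on no array.

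Collagen-processing proteins fold, modify and trim procollagen. All 5 had a higher mean with dystrophin than with GL2 siRNA, between 0.17 and 0.33, in 7 of 7 numbers each, and *Pcolce* passed. *Pcolce* encodes an enhancer of the protease that removes the carboxy-terminal propeptide of procollagen. It had 12.35, 12.46, 12.56 and 12.69 on untreated arrays 1 to 4, from 12.17 over 12.35 to 12.49 with GL2 siRNA and from 12.52 over 12.59 to 12.67 with dystrophin siRNA. It was the 1 gene of the 41 with every dystrophin siRNA array above every GL2 siRNA array, where 2.13% of detected probes had that pattern. The rise of 0.28 (SE 0.08, adjusted p = 0.048) was lost with 15 of the 18 arrays left out in turn, all but untreated arrays 1 and 4 and GL2 siRNA array 3, with adjusted p-values up to 0.11. It was also lost within numbers (0.092), with the number as a block over all arrays (0.073), with median centring (0.13) and with only the compared groups (0.063).

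*Serpinh1*, the collagen chaperone HSP47, was higher by 0.27 (adjusted p = 0.1, and 0.065 within numbers). *Plod2*, a lysyl hydroxylase, was higher by 0.33 (0.24, and 0.056 within numbers), and below every untreated array with GL2 siRNA. *Bmp1*, the procollagen C-proteinase, was higher by 0.27 (0.22, and 0.082), and *P4ha1*, a catalytic subunit of prolyl 4-hydroxylase, by 0.17 (0.62, and 0.25).

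The matrix proteases did not move together. Of 6 genes 4 had a higher and 2 a lower mean with dystrophin than with GL2 siRNA, and *Adamts1* and *Adamts5*, both proteases that cleave large proteoglycans such as aggrecan and versican, rose. *Adamts1* had 6.49, 6.47, 6.43 and 6.64 on untreated arrays 1 to 4, from 5.2 over 5.95 to 6.43 with GL2 siRNA and from 6.29 over 6.66 to 7.21 with dystrophin siRNA. The siRNA groups overlapped through dystrophin siRNA array 7 and GL2 siRNA arrays 1, 2 and 5. *Adamts1* rose 1.68-fold (log2 difference 0.75, SE 0.17, adjusted p = 0.017, and 0.0026 within numbers), a call kept under every setting tried, although without background correction the log2 difference was 0.35.

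*Adamts5* had 10.2, 10.26, 10.37 and 10.27 on untreated arrays 1 to 4, from 9.32 over 9.68 to 9.76 with GL2 siRNA and from 9.67 over 10.15 to 10.57 with dystrophin siRNA. Every GL2 siRNA array lay below every untreated array and below every dystrophin siRNA array but number 7. With GL2 siRNA it fell by 0.67 against untreated cultures (SE 0.14, adjusted p = 0.032), a call lost without any 1 untreated array or without GL2 siRNA array 4, 5, 6 or 7 (adjusted p up to 0.12) with the number as a block (0.094) and with median centring (0.058). Its 2 further probes gave -0.5 (adjusted p = 0.16) and -0.14 (0.9) in this comparison. Between the siRNAs it rose by 0.47 (SE 0.12, adjusted p = 0.035, and 0.055 within numbers), a call lost without GL2 siRNA array 1, 4, 5, 6 or 7 or dystrophin siRNA array 1, 2, 4 or 5 (up to 0.082), with median centring (0.073) and with only the compared groups (0.073). Between the siRNAs these probes gave 0.4 (adjusted p = 0.1, and 0.019 within numbers) and, for the dimmer one, -0.21 (adjusted p = 0.82).

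Of the matrix metalloproteinases, *Mmp9*, gelatinase B, which is also made by leukocytes, was lower with dystrophin siRNA in every number. It had 9.63, 9.04, 9.02 and 9.04 on untreated arrays 1 to 4, from 8.92 over 9.16 to 9.84 with GL2 siRNA and from 8.7 over 8.82 to 9.28 with dystrophin siRNA. Array 1 was the highest of each group. The difference was negative in 7 of 7 numbers, a pattern of 9.86% of detected probes. Its mean was -0.34 (SE 0.14, adjusted p = 0.26, and 0.057 within numbers), which passed in neither fit. It passed with the number (0.024) or the clusters (0.011) as a block over all 18 arrays, with the limits of those blocks given above. *Mmp3*, stromelysin 1, differed by -0.13, *Mmp2*, gelatinase A, by 0.09 and *Mmp14*, a membrane-bound collagenase, by 0.03 (95% interval -0.11 to 0.17), none past the threshold.

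The inhibitors of metalloproteinases and the fibroblast surface proteins showed no call between the siRNAs. *Timp1* was higher in 7 of 7 numbers (0.25, adjusted p = 0.31, and 0.096 within numbers), *Timp3* in 6 of 7 (0.12) and *Timp2* in 2 of 7 (-0.12). *Timp2* was the 1 gene with a higher mean after GL2 siRNA than in untreated cultures at an unadjusted p under 0.05 (0.3, adjusted p = 0.25). Of the fibroblast surface proteins, *Pdgfra* and *Pdgfrb*, the receptors for platelet-derived growth factor, differed by 0.06 (95% interval within numbers -0.12 to 0.23) and 0.08 (-0.1 to 0.25). *Thy1*, a membrane-anchored glycoprotein, was higher in 7 of 7 numbers (0.26, adjusted p = 0.52, and 0.11 within numbers).

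RefSeq promoter sequences of build GRCm38.p6 matched 23 of the 42 genes, 4 of them among the 10 that rose within numbers, and these 4 are shown so that the stretch before their start can be read beside the values. Those of *Adamts1* (chr16:85803114-85803233, minus strand), *Ogn* (chr13:49607895-49608014, plus strand), *Thbs2* (chr17:14694263-14694382, minus strand) and *Tnc* (chr4:64046937-64047056, minus strand, 1 of 2 annotated starts) are printed as the 120 bases before the annotated start, 5′ to 3′, with matched motifs in capitals.
Adamts1: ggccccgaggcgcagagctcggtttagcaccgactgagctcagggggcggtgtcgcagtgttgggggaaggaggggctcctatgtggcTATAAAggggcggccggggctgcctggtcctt
Ogn: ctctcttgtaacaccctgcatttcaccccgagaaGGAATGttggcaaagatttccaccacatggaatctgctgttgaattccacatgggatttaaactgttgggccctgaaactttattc
Thbs2: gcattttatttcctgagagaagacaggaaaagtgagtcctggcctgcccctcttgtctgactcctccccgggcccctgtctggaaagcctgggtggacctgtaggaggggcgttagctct
Tnc: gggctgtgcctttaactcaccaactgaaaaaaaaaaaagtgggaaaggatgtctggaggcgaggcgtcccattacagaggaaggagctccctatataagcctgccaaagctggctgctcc
3 motifs were searched on both strands, a choice made with the results known. They were the box of the core promoter, TATAAA, the core that TEAD factors bind, which reads GGAATG, and the sequence of the AP-1 complex, which reads TGACTCA. Of these, TATAAA stood at -32 of *Adamts1*, GGAATG at -86 of *Ogn*, and none of the 3 exact strings in the other windows shown. Near variants, such as TATATAAG in the *Tnc* window, were not searched. Of 32851 annotated promoter windows of the same length, 6.34% held TATAAA, 5.82% GGAATG and 2.3% TGACTCA, and a match is a description of letters only.

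The levels varied between array numbers as well as between the siRNAs. Over the 14 siRNA arrays the number, which has 6 degrees of freedom to the 1 of the siRNA, accounted for a median of 63.8% of the sum of squares of the 40 genes detected on at least 4 arrays, the siRNA for 27% and the remainder for 7.98%. Over all detected probes the medians were 57.2%, 9.75% and 22.1%. Of the variation within the siRNA groups 89.5% lay between numbers for these genes and 71.2% for all detected probes, where the number holds 50% of the degrees of freedom. The siRNA share was largest for *Pcolce* (72.8%), *Loxl1* (61%), *Ctgf* (57.3%) and *Thbs1* (56.6%). The number share was largest for *Mmp3* (94.5%), *Mfap4* (92.8%), *Dcn* (88.8%) and *Lum* (87.9%). *Dcn* and *Lum* are fibroblast markers, *Mmp3* and *Mfap4* were not used as such. The other fibroblast markers had 86.3% (*Pdgfra*), 79.5% (*Thy1*) and 67.2% (*Pdgfrb*), the last near the median.

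**Figure D3:**
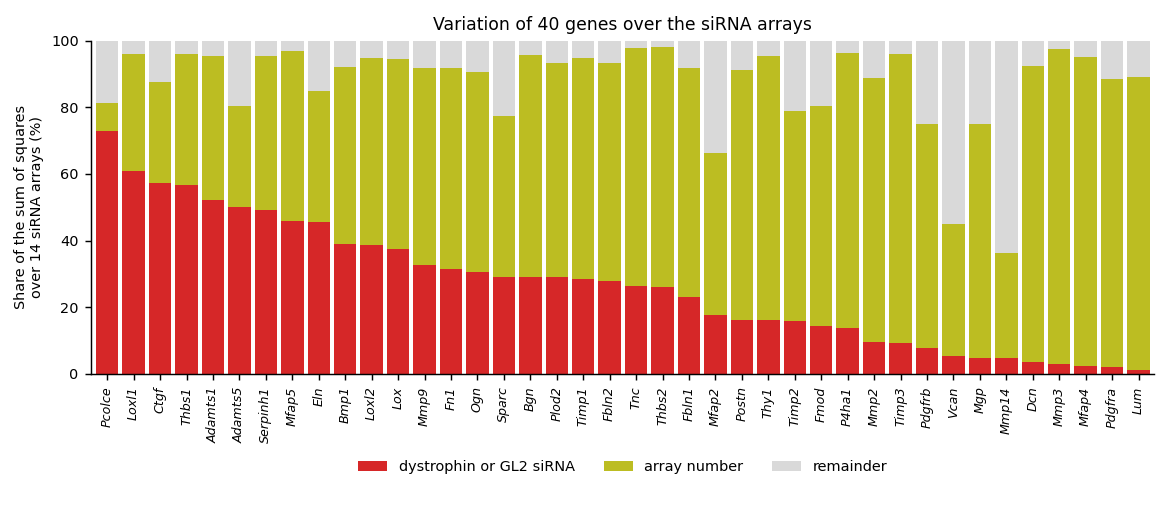
Share of the sum of squares over the 14 siRNA arrays (y axis, %) that lay between dystrophin and GL2 siRNA, between array numbers and in the remainder, for the 40 genes detected on at least 4 arrays (x axis, ordered by the siRNA share). The siRNA share runs from 72.8% for *Pcolce* to 1.25% for *Lum*.

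The gene with the widest range over all arrays was *Thbs1*, at 3.04 on the log2 scale. Its mean of both siRNA arrays of a number lay 0.93 above the mean of the 14 arrays for number 2 and 0.65 below it for number 1. Numbers 6 and 7 were low for most genes. The lowest number was 6 or 7 for 31 of the 40 genes, where 29.9% of detected probes had their lowest level there, and the highest was 2 or 3 for 26 of the 40, where 29.9% had their highest there. *Postn* lay 1.05 and *Tnc* 0.51 below their means on number 7. Other genes followed another order: *Mfap4*, *Mmp9*, *Mmp3* and *Ctgf* were highest on number 1, by 0.81, 0.52, 0.52 and 0.47, and *Timp2* and *Mgp* were higher on numbers 6 and 7 than on number 1.

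Despite this spread the difference between the siRNAs had the same direction in each number. The dystrophin siRNA array was higher for 31, 36, 32, 34, 35, 31 and 33 of the 40 genes in numbers 1 to 7, with median differences between 0.19 and 0.36. Over all detected probes the share that was higher was 49.9% to 53.1% and the median difference 0 to 0.03. The mean over the 38 genes detected on all arrays, as log2 difference from their mean over 18 arrays, was 0.03 to 0.21 on the untreated, -0.42 to 0.05 with GL2 siRNA and -0.16 to 0.37 with dystrophin siRNA. In every number the dystrophin siRNA array exceeded its GL2 partner, by 0.23 to 0.35, and number 7 of GL2 siRNA was the lowest of all 18 arrays.

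**Figure D4:**
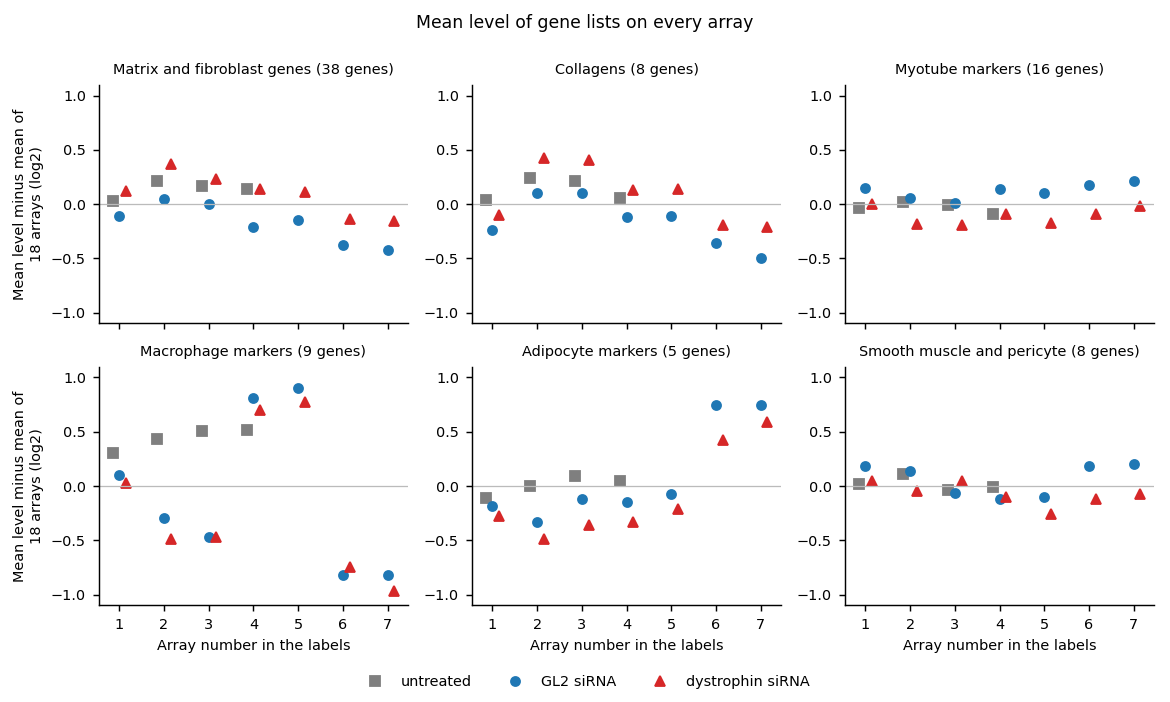
Mean log2 level of 6 gene lists on every array, minus their mean over the 18 arrays (y axis), by array number (x axis); squares are untreated, circles GL2 siRNA and triangles dystrophin siRNA arrays. The matrix and fibroblast genes and the collagens lie higher with dystrophin than with GL2 siRNA in all 7 numbers, the myotube markers lie lower in all 7, and macrophage and adipocyte markers differ mainly between numbers.

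Markers of other cells moved with these numbers and siRNAs, and their part in the results was not tested. Myotube markers, of which 16 of 18 were measured and all 16 detected, had a lower mean with dystrophin siRNA in 7 of 7 numbers (by 0.15 to 0.27). Of these, *Chrna1*, *Neb*, *Ckm* and *Tnnt3* fell between the siRNAs and none rose, where 4.75% of detected probes fell and 3.52% rose. Within numbers, where 4.69% of detected probes rose, *Myog* also rose. The median difference over the 16 markers was nonetheless -0.02. Their summed signal was 326423 to 395249 on the untreated, 330452 to 350758 on the GL2 siRNA and 313154 to 370315 on the dystrophin siRNA arrays. Macrophage markers, 9 of 10 measured genes detected and *Itgam* on no array, were high on numbers 4 and 5 and low on 6 and 7 in both siRNA groups, with 99.1% of their sum of squares between numbers. Their summed signal was 8826 to 11902, 4960 to 12431 and 5150 to 13658 on the untreated, GL2 and dystrophin siRNA arrays.

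Adipocyte markers, with 5 of 10 detected on at least 4 arrays and *Fabp4*, *Cd36*, *Lep* and *Retn* on none, were highest on numbers 6 and 7, where most matrix genes were lowest, and lower with dystrophin siRNA in 7 of 7 numbers. Their summed signal was 7706 to 8054, 5418 to 8545 and 5347 to 7432 in the same order of groups. Of 11 smooth muscle and pericyte markers, 8 detected on at least 4 arrays and *Cnn1* on none, *Tagln* and *Cspg4* rose and *Abcc9* and *Lmod1* fell between the siRNAs, with sums of 44642 to 57139, 42360 to 49488 and 42964 to 59307. In the endothelial list 1 of 11 genes rose (*Vwf*; *Tie1* was on no array), in the Schwann cell list 1 of 7 (*Pmp22*, with *S100b* and *Gfap* on no array), and in the cartilage and tendon list of 8, with *Matn1* and *Cnmd* on no array, none rose and *Sox9* fell. Within numbers *Col2a1* and *Tnmd* of that list rose, and the mean of its 6 detected genes was higher with dystrophin siRNA in 7 of 7 numbers, by 0.03 to 0.3, as that of the matrix genes was. Its summed signal was 8237 to 10517, 7988 to 10964 and 7017 to 10319 in the same order of groups. Of the 9 myoblast and satellite cell markers *Itga7* fell and none rose, and *Pax7* and *Myf5* were on no array. Beside these short lists, 3.52% of detected probes rose and 4.75% fell between the siRNAs, and 4.69% rose within numbers. With so few genes, 1 or 2 calls say little about a list.

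A wider list of 76 further measured non-collagen matrix and fibroblast genes, 65 of them detected on at least 4 arrays, had a median log2 difference of 0.17 between the siRNAs. Of these 6 rose and none fell, *Cspg4* of the pericyte list among them, and within numbers 12 rose and 1 fell. Over all detected probes 3.52% rose and 4.75% fell between the siRNAs, and 4.69% rose and 5.21% fell within numbers. *Ltbp2*, a gene of the family named latent TGF-β binding proteins, rose by 0.78 (SE 0.16, adjusted p = 0.0057). *Has2*, a hyaluronan synthase, rose by 0.61 (0.013) and *Fstl1*, which encodes a secreted glycoprotein, by 0.54 (0.024). *Aspn*, asporin, rose by 0.72 (0.037) but was detected on 1 array. *Cyr61*, a CCN family gene like *Ctgf* and named after its values were seen, was higher by 0.84 (SE 0.30, adjusted p = 0.16, and 0.00057 within numbers). Against untreated cultures 5 of the 76 fell with GL2 siRNA, where 0.895% of detected probes fell, and 1, *Ltbp1*, with dystrophin siRNA (-0.48, adjusted p = 0.0085). Of the 8 measured fibrillar and beaded collagens *Col5a1* rose between the siRNAs (0.33, adjusted p = 0.033), after GL2 siRNA it fell against untreated cultures (-0.48, adjusted p = 0.029), and *Col6a2* rose within numbers (0.39, adjusted p = 0.027).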

How the data were processed

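The authors deposited mean bead signals exported from BeadStudio, as linear intensity, with a detection p-value for every probe and array, and a second table of intensity values, background corrected, log2 transformed and quantile normalised with lumi (version not given in the sources used here) and then put back on a linear scale. Here the deposited bead signals were corrected with the RMA background model, log2 transformed and normalised by quantiles in R 4.3.3, which gave log2 values within a median of 0.00248 (largest 0.0223) of those the authors deposited. No probe was filtered from the tests.

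All 18 arrays entered 1 limma 3.58.1 fit of 3 groups without a block, as the study's methods state no covariate, and Benjamini-Hochberg adjustment ran over the whole array of 46632 probes. The threshold was an adjusted p under 0.05. A second fit compared the 14 siRNA arrays with the array number as a block. After removing group means over detected probes other than the genes described, arrays of the same number in both siRNA groups correlated at 0.35 to 0.51, and 6 of 7 matched their own number best in each direction, so the numbers pair the siRNA arrays. Untreated arrays of the same number did so less (-0.08 to 0.27) and are not paired. Average-linkage clustering of the same values gave 4 clusters of arrays (siRNA number 1, numbers 2 and 3, 4 and 5, and 6 and 7, each with 1 untreated array), used as a block in an alternative fit.

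All 42 genes are named. Values are given for the 12 that passed in the fit without a block or within array numbers, and for *Mmp9*, added for its opposite direction. They are each untreated array and the lowest, median and highest level of each siRNA group. Alternative fits passed further genes. Other lists give up to 4 genes, those past the threshold with the largest difference between the siRNAs. The genes, lists and comparisons were chosen with earlier results of these data known. The scripts were tested on simulated data. Of the probes, 29976 have 1 gene symbol, 10 several and 16646 none. Alternatives covered background correction, scaling, the deposited values, detected probes alone, blocks, the compared groups alone, further probes and each array left out.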

Additional observations from a re-analysis of the deposited data

Results flagged for a closer look

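In 8 of 123 groups of arrays (41 genes in 3 groups) 1 array stood apart from the others by more than a Dixon test at 95% allows, and chance gives such an array in about 1 in 20 groups. With GL2 siRNA, *Sparc* was 7.58 on array 3 against 6.38 to 6.87 on the others, *Ctgf* was 12.38 on array 1 against 11.3 to 11.69, and *Vcan* was 4.93 on array 7, where its probe was dim, against 5.64 to 6.15. Untreated array 1 held 3 of the 8 values: *Mfap5* at 11.69 against 12.24 to 12.31, *Mgp* at 14.53 against 14.82 to 14.84, and *Mmp9* at 9.63 against 9.02 to 9.04. *Mfap4* was 12.85 on untreated array 2 against 11.85 to 11.95. *Mmp9* was also high on dystrophin siRNA array 1, at 9.28 against 8.7 to 8.87.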

How the results depend on the processing

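Between dystrophin siRNA and untreated cultures no gene passed under any of 26 alternatives. For GL2 siRNA against untreated, where 1 gene passed, the count was 2 with the number as a replicate block, 7 with the clusters as a block, 5 without background correction, 4 with neqc, 0 with median centring, 5 among detected probes alone and 0 to 3 with 1 array left out. The untreated numbers pair no cultures. Over all tested probes 342 were called here in the fit without a block, in either direction. The number as a block gave 274, the clusters 973, no background correction 854, neqc 755, median centring 280 and detected probes alone 811. For dystrophin against GL2 siRNA, where 6 genes passed, the count of genes was 15 with the replicate block, 13 with the clusters and 11 without background correction. It was 3 with median centring, 10 among detected probes, 3 with only the compared groups and 3 to 7 with 1 array left out. Over all tested probes 1752 were called, and these settings gave 2428, 2735, 2636, 1395, 2713 and 1464 in that order, arrays left out aside. Within numbers, where 10 genes passed, the count of genes was 3 without the replicate block on the same 14 arrays and 26 without background correction. It was 25 with neqc, 25 among detected probes and 5 to 8 with 1 array left out. Over all tested probes 2117 were called within numbers, 1464 without the block, 4430 without background correction, 4273 with neqc and 4176 among detected probes. The fit and the adjustment were both run anew on the detected probes. Why the counts differ between settings was not tested. The gene counts of 26, 25 and 25 lost none of the 10 genes. Between the siRNAs 35 to 37 of 41 means were higher under every alternative tried. For dystrophin siRNA against untreated, the majority of 23 lower became 26 higher with the replicate block and 24 higher without dystrophin siRNA array 6 or 7, with no call. Of 27 further probes of 15 genes 23 kept the sign between the siRNAs. The other 4, all dim, gave -0.21 for *Adamts5*, whose chosen probe passed, and -0.21 for *Pdgfra*, -0.09 for *Bmp1* and -0.08 for *Timp3*, whose chosen probes did not. Dim probes (*Adamts1*, *Ogn*, *Thbs1*) lose size without background correction.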
